A study of Mus musculus with 2 samples.

Results

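Clock output genes led by Dbp were followed, array by array, in the liver of apoE-KO mice on either of 2 diets. The set held 8 genes of the 27962 gene names on the arrays: Dbp, Tef, Hlf, Nfil3, Usp2, Gm129 (now Ciart), Bhlhb2 (now Bhlhe40) and Lpin1. They were chosen by their known place in or near the circadian clock together with their measured diet differences on these same arrays, so their diet differences are given as a description, with no test. All 8 passed the filter on dim spots, which 16730 genes passed, and they were read by 16 probes. All mice were male apoE-KO mice on the C57BL/6 strain, both diets included, so a wild-type liver was not part of the comparison. Normal chow was the control, and the high-Chol diet was the same chow with 1.25% Chol, given for 1 week from an age of 10 weeks. Each diet was measured in 3 independent experiments, 1 array each, and how many mice gave the RNA of an array is not given in the sources used here. The methods state a light-dark cycle, and the hour of day when the livers were taken is not given in the sources used here.

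The circadian clock of liver cells is a loop in which the activators Clock and Arntl (BMAL1) bind E-boxes and switch on their own repressors, the Per and Cry genes. The same activators switch on output genes, among them the PAR bZIP factors Dbp, Tef and Hlf, which bind D-boxes and in turn drive rhythmic genes of liver metabolism. Nfil3 (E4BP4) is a repressor that binds the D-box too and peaks at the opposite time of day from Dbp. Dbp is known for a wide daily swing in liver. Lpin1 encodes lipin-1, the phosphatidic acid phosphatase of triglyceride synthesis and a transcriptional coactivator, and its liver transcript is also known to vary with the time of day and with feeding.

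The stretches of promoter that hold clock sites are shown because several of the 8 genes varied together across the arrays. The RefSeq promoter windows (GRCm38.p6, 250 bases before to 50 after each start) covered 7 of the 8 genes in 8 windows. Both strands were searched for the E-box CACGTG, the E-box variant CACGTT, the D-box as TTATGTAA or TTACGTAA, and the core of the ROR element TAGGTCA, and the matches did not overlap each other in these windows. Matches lay upstream of the start in Gm129, Tef and Nfil3, and each stretch runs 5′ to 3′ on the gene's strand with up to 20 bases on either side and the match in capitals. Gm129 held 3 E-boxes (chr3:95882247-95882364, minus strand), each of the 2 Tef windows held 1 (chr15:81802526-81802571 and chr15:81811256-81811301, plus strand), and Nfil3 held 1 ROR element core, read on the opposite strand (chr13:52981040-52981071, minus strand).
Gm129: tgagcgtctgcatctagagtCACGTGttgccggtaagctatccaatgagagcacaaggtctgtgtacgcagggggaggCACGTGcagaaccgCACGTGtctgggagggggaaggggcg
Tef, first window: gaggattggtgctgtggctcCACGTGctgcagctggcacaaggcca
Tef, second window: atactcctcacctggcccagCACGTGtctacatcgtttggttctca
Nfil3: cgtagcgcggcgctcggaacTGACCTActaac

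Of all 32851 promoter windows of the same length, 7.15% held the E-box, 4.68% the E-box variant, 1.06% a D-box and 2.61% the ROR element core. The windows of Dbp, Hlf, Usp2 and Lpin1 held no match to these letters, which says nothing about sites elsewhere in those genes. A match is a description of the sequence and was not measured as a bound site.

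Signals are given as the log2 of the background-subtracted spot intensity relative to the 75th percentile of the same array, so a value of 0 is a signal equal to that percentile and a difference of 1 is 2-fold. The normal chow arrays, called NC-A, NC-B and NC-C here, were at positions 1, 2 and 3 of slide 1. The high-Chol array HC-A was at position 4 of slide 1, while HC-B and HC-C were at positions 2 and 3 of slide 2. The difference within slide 1, which sets HC-A against the normal chow arrays, is therefore given beside that over all arrays. The 75th percentile itself was 271 to 373 intensity units on slide 1 and 762 to 799 on slide 2, and 50.5 to 67.2% of the spots of an array were well above background. HC-C stood apart from HC-A and HC-B in most of the 8 genes, and the differences are given with and without it.

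The liver label was checked on the same arrays. The 7 hepatocyte markers measured were present on all 6 arrays, with Alb1 (albumin) at 9.05 to 9.64. Limma called 0 of the 7, and 3 had an unadjusted p under 0.05, where 21.2% of all genes did. Their median log2 difference was -0.34, with 5 lower and 2 higher means. The high-Chol arrays lay below all normal chow arrays for 3 of them (Alb1 at -0.34, Cps1 at -0.27 and Fgb at -0.41), as for 14.0% of all genes, and above them for Ttr, at 0.48. Their summed signal was 2087 to 2393 times the 75th percentile on normal chow and 1719 to 2000.2 on the high-Chol diet, lowest on HC-C. Limma called 4 of 9 Kupffer cell and macrophage markers (Cd68, Marco, Cd5l and Lyzs), 2 of 3 neutrophil markers (S100a8 and S100a9) and 1 of 5 stellate cell markers (Col1a1) higher on the high-Chol diet, and 0 of 5 endothelial, 0 of 5 cholangiocyte and 0 of 5 lymphocyte markers, where over all genes it called 2.69% higher and 0.227% lower. Cd163, another macrophage marker, went the other way with no overlap between the diets, at -0.91 (limma, adjusted p = 0.154). The lymphocyte markers Cd3g and Cd79a passed the filter through the diet where each was brighter, with 1 dim array on the other diet, so their differences are not given. The third neutrophil marker, Retnlg, was well above background on 0 normal chow arrays and passed the filter through the high-Chol arrays alone, so its call is not counted. With slide as a block these 7 calls were lost (adjusted p from 0.077 to 0.251 in limma), and limma called 0 genes of any kind with the normexp background. The summed signal of the macrophage markers was 163 to 194 times the 75th percentile on normal chow and 401 to 540 on the high-Chol diet. That of the neutrophil markers, with Retnlg still in the sum, was 1.44 to 1.62 and 9.16 to 15.4. In both sums HC-C lay with the other high-Chol arrays, at 540 and 9.16, and the part of hepatocytes, macrophages and neutrophils in the results on the clock output genes was not tested. In whole liver, fewer cells of a type and less RNA per cell cannot be told apart.

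Dbp, the PAR bZIP factor that leads the group, split the arrays widely. The Dbp probe (chr7:41886169-41886228, mm7) read 6.57 on NC-A, 6.49 on NC-B and 6.80 on NC-C. It read 0.86 on HC-A, 0.86 on HC-B and 5.64 on HC-C. The normal chow arrays lay close together, HC-A and HC-B lay far below them at almost the same level, and HC-C lay under the normal chow arrays but far nearer to them, so the diets did not overlap. The mean signal was 6.62 ± 0.16 (SD, n = 3) on normal chow against 2.46 ± 2.76 (SD, n = 3) with added Chol, a log2 difference of -4.17, or 17.9-fold lower. Within slide 1 the difference was -5.76 (54.4-fold lower), and without HC-C it was -5.76. The SD of the high-Chol arrays was large beside the mean difference, and came mostly from the gap of 4.78 between HC-B and HC-C.

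Tef, the second PAR bZIP factor, repeated the split at a smaller size. Its brightest probe (chr15:81910893-81910952, mm7) read 3.08, 3.59 and 3.69 on NC-A, NC-B and NC-C. On HC-A it read 0.83, on HC-B 1.00 and on HC-C 3.12. The last of these values lay within the normal chow range, so the diets overlapped on this probe. The difference was -1.80 on the log2 scale (3.49-fold lower), from 3.45 ± 0.33 to 1.65 ± 1.27 (SD, n = 3 each), with -2.62 within slide 1 and -2.54 without HC-C. The 3 dimmer Tef probes gave differences of -1.53, -1.95 and -1.42 with no overlap between the diets, and on each of them HC-C was again the highest of the high-Chol arrays. Of those, 1 probe was well above background on HC-A and HC-C but not on HC-B, and another on HC-C alone of the 3.

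Hlf, the remaining PAR bZIP factor, differed less than Dbp and Tef. Its probe (chr11:90447703-90447762, mm7, minus strand) read 1.84, 2.59 and 2.23 on NC-A, NC-B and NC-C, and 0.88, 0.63 and 1.96 on HC-A, HC-B and HC-C. HC-C again lay inside the normal chow range, with the other two below it. The diet difference was -1.06 on the log2 scale (2.09-fold lower), from 2.22 ± 0.37 to 1.16 ± 0.71 (SD, n = 3 each), with -1.34 within slide 1 and -1.47 without HC-C.

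**Figure D1:**
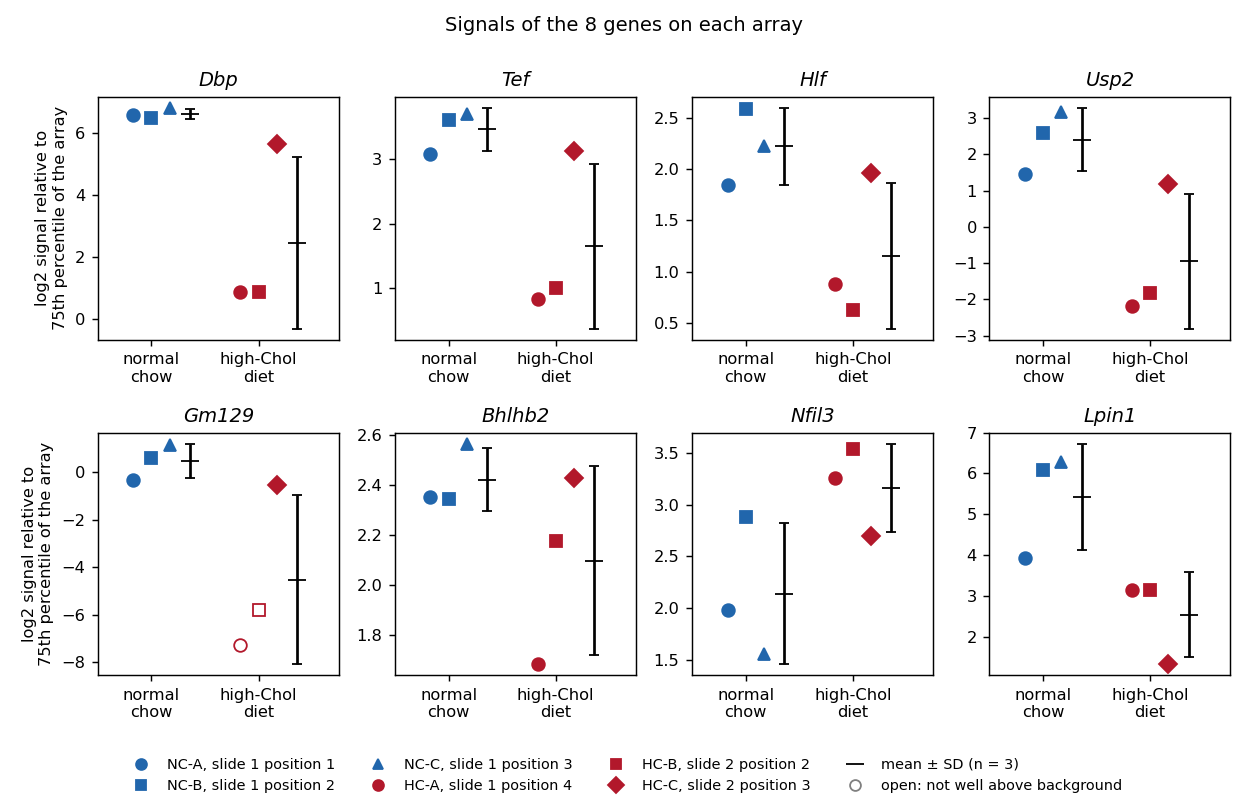
Log2 signal relative to the 75th percentile of the array (y axis, a separate scale for each gene) for the brightest probe of each gene on the 3 normal chow arrays (NC, blue) and the 3 high-Chol arrays (HC, red), with the mean and SD in black (n = 3) and open symbols for spots not well above background. HC-C (diamond) lies near the normal chow arrays for Dbp (5.64), Tef (3.12), Hlf (1.96), Usp2 (1.18) and Gm129 (-0.52), and is the lowest of the 6 arrays for Lpin1 (1.34).

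Usp2, a ubiquitin-specific protease with a strong daily rhythm in liver, had the same split as Dbp. The brighter Usp2 probe (chr9:44027086-44027145, mm7) read 1.46, 2.60 and 3.16 on NC-A, NC-B and NC-C, and -2.19, -1.83 and 1.18 on HC-A, HC-B and HC-C. The diets did not overlap, but HC-C was much nearer the lowest normal chow array than the other high-Chol arrays. The log2 values differed by -3.36 (10.3-fold lower), from 2.41 ± 0.87 to -0.95 ± 1.85 (SD, n = 3 each), with -4.60 within slide 1 and -4.42 without HC-C. The second Usp2 probe gave -3.47, and of the high-Chol arrays HC-C alone had a signal well above background on it.

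Gm129 (Ciart), a repressor of the Clock and Arntl complex, was dim on HC-A and HC-B. Ranked from the lowest log2 difference of the 16730 genes, Dbp stood at 2, Usp2 at 4 and Lpin1 at 7, and Gm129 stood before them from spots of which 2 were not well above background. The Gm129 probe (chr3:95752460-95752519, mm7, minus strand) read -0.32, 0.61 and 1.13 on NC-A, NC-B and NC-C. It read -7.28 on HC-A and -5.79 on HC-B, both not well above background, and -0.52 on HC-C, which was. The diets did not overlap, and the measured high-Chol array lay just below the lowest normal chow array. The log2 difference was -5.0, from 0.47 ± 0.73 to -4.53 ± 3.55 (SD, n = 3 each), and -4.76 with each dim spot raised to the lowest signal well above background on its array where it was under that level. A normexp background in place of the software's subtraction gave -1.56 for Gm129, against -3.58 for Dbp, -2.45 for Lpin1 and -2.05 for Usp2, so both the size and the rank of the Gm129 difference depend on how dim spots are read. It was -7.75 within slide 1 and -7.01 without HC-C, and both of these use dim spots for the high-Chol diet.

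Bhlhb2 (DEC1), a repressor that binds the E-box, differed least of the 8 genes. Its probe (chr6:108760353-108760412, mm7) read 2.35, 2.35 and 2.57 on NC-A, NC-B and NC-C, and 1.69, 2.18 and 2.43 on HC-A, HC-B and HC-C. HC-C lay between the normal chow arrays and the others lay below. The diet difference was -0.32, from 2.42 ± 0.13 to 2.10 ± 0.38 (SD, n = 3 each), which is less than the SD of the high-Chol arrays. It was -0.73 within slide 1 and -0.49 without HC-C.

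Nfil3, which opposes the PAR bZIP factors at the D-box, was the gene of the 8 with a higher mean on the high-Chol diet. The brighter Nfil3 probe (chr13:52008023-52008082, mm7, minus strand) read 1.98, 2.89 and 1.56 on NC-A, NC-B and NC-C, and 3.26, 3.53 and 2.70 on HC-A, HC-B and HC-C. The diets overlapped because HC-C lay below the highest normal chow array. The diet difference was 1.02 (2.03-fold higher), from 2.14 ± 0.68 to 3.16 ± 0.43 (SD, n = 3 each), with 1.12 within slide 1 and 1.26 without HC-C. The second probe gave 0.87, also with overlap. On both probes the high-Chol array with the highest Dbp, HC-C, was thus the one with the lowest Nfil3.

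Lpin1 was lower on the high-Chol diet too, but with another order of the arrays. Its brightest probe (chr12:16590760-16590818, mm7, minus strand) read 3.92, 6.07 and 6.28 on NC-A, NC-B and NC-C, and 3.14, 3.15 and 1.34 on HC-A, HC-B and HC-C. The lowest value of the 6 was on HC-C, which was the high-Chol array nearest normal chow for Dbp, and the lowest normal chow value was on NC-A, where Dbp was at its normal chow level. The diet difference was -2.88 (7.38-fold lower), from 5.43 ± 1.31 to 2.54 ± 1.04 (SD, n = 3 each), with -2.29 within slide 1 and -2.28 without HC-C. The 3 other Lpin1 probes, of which a pair overlap in position, gave -2.80, -2.66 and -2.71. On each of them HC-C was the lowest array and NC-A the lowest of its diet, and the diets did not overlap on any of the 4 probes.

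Each gene was then set beside Lpin1 on the same array, as the log2 distance from that gene's own normal chow mean. On HC-A, Dbp lay at -5.76 and Lpin1 at -2.29, and on HC-B they lay at -5.76 and -2.28. On HC-C, Dbp lay at -0.98 and Lpin1 at -4.09. Dbp was thus further from normal chow than Lpin1 on HC-A and HC-B, and nearer to it on HC-C, where Dbp was higher by 4.78 than on HC-B and Lpin1 differed from HC-B by -1.81.

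On HC-C the other clock output genes also lay nearer to normal chow than Lpin1 did. There the distance from the normal chow mean was -0.33 for Tef, -0.26 for Hlf, -1.23 for Usp2, -1.0 for Gm129, 0.01 for Bhlhb2 and 0.56 for Nfil3, against -4.09 for Lpin1. On HC-B it was -2.45 for Tef, -1.59 for Hlf, -4.24 for Usp2, -6.26 for Gm129 (a spot not well above background), -0.24 for Bhlhb2 and 1.39 for Nfil3, against -2.28 for Lpin1. For 7 of the 8 genes HC-C was thus nearer to normal chow than HC-B, and Lpin1 was the exception.

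HC-C was the highest of the high-Chol arrays for Dbp, Tef, Hlf, Usp2, Gm129 and Bhlhb2, whereas Lpin1 and Nfil3 were both lowest on HC-C. Among the normal chow arrays, Lpin1 and Dbp also differed in spread. Lpin1 covered 2.36 on the log2 scale, from -1.50 to 0.86 around its mean, and Dbp covered 0.31. Usp2 and Gm129 covered 1.70 and 1.45, and both were lowest on NC-A and highest on NC-C, as was Lpin1, and Tef had the same order within 0.61. With 3 arrays per diet and the diets far apart, no correlation was computed.

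**Figure D2:**
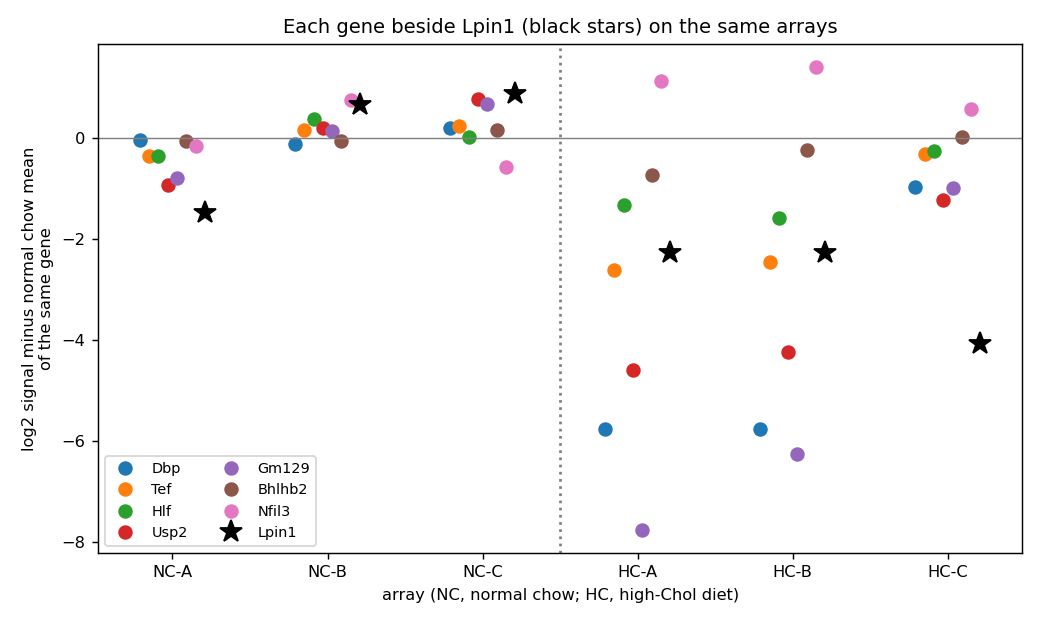
Log2 signal minus the normal chow mean of the same gene (y axis) on each of the 6 arrays (x axis), with Lpin1 as black stars and the other genes as coloured points, side by side within an array. Lpin1 lies above Dbp on HC-A and HC-B (-2.29 and -2.28 against -5.76) and below every other gene of the set on HC-C (-4.09).

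In counts, 6 of the 8 genes were over 1.5-fold lower on the high-Chol diet, 1 was over 1.5-fold higher and 1 differed by less, where 5.84% of all genes were lower and 15.4% higher by that much. The arrays of the diets did not overlap in 4 of the 8 genes (Dbp, Usp2, Gm129 and Lpin1), all lower on the high-Chol diet. Among 16440 genes measured on every array, 14.0% had their high-Chol arrays all below and 11.8% all above those of normal chow. Gm129 passed the filter on low signal through normal chow, with HC-A and HC-B not well above background. Without it, 5 of 7 genes were over 1.5-fold lower and 3 of 7 were lower without overlap. With HC-C and Gm129 left out, all 7 genes were without overlap, 6 lower and Nfil3 higher, where 19.1% of all genes were lower and 14.5% higher in this way. The median log2 difference of the 8 genes was -2.34, or -1.80 without Gm129, and that of all genes -0.02. These counts use the contrast by which the genes were chosen.

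HC-B and HC-C share a diet and a slide, and their gap in the 8 genes was wide. From HC-B to HC-C, Dbp was higher by 4.78, Usp2 by 3.01, Tef by 2.12 and Hlf by 1.33 on the log2 scale, or 27.5-fold for Dbp and 8.07-fold for Usp2. Gm129 read 5.27 higher, against an HC-B spot not well above background, so that its gap has no measured size. Bhlhb2 was higher by 0.25, while Nfil3 differed by -0.83 and Lpin1 by -1.81 (3.5-fold lower). The median gap over all genes was 0.01 and the median of its size 0.19. Over 2-fold higher on HC-C were 5 of the 8 genes, Gm129 and its dim spot included, where 1.82% of all genes were, and over 2-fold lower was 1 of the 8, Lpin1, where 1.31% of all genes were. Ranked by this gap among the 16449 genes measured on both arrays, Dbp ranked 2, Usp2 6 and Tef 31 from the highest, and Lpin1 ranked 33 from the lowest. With 1 array on each side this gap has no test and no error.

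**Figure D3:**
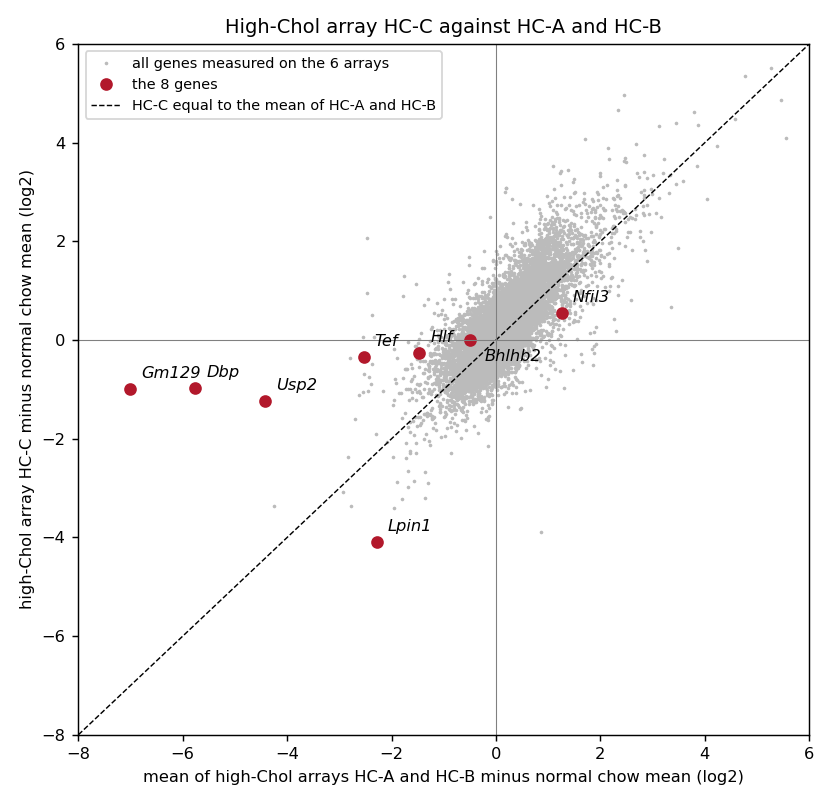
Each point is a gene measured on all 6 arrays, with the mean of HC-A and HC-B minus the normal chow mean on the x axis and HC-C minus the same normal chow mean on the y axis (both log2), so the axes share the normal chow arrays. Gm129 (-7.01, from spots not well above background, and -1.0), Dbp (-5.76 and -0.98) and Usp2 (-4.42 and -1.23) lie far to the left and close to 0 on the y axis, while Lpin1 (-2.28 and -4.09) lies below the dashed line of equality.

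The genes whose pattern over the 6 arrays was most like that of Dbp were found among 14047 other genes measured and well above background on every array, by the mean absolute difference of log2 signals centred on each gene's own mean. Usp2 was nearest of all (0.68), and Tef ranked 3 (1.36). The 5 nearest genes outside the set were Per2 (1.25), D0H4S114 (1.37), Fkbp5 (1.40), Cyp7a1 (1.42) and Aacs (1.43). Per2, a repressor of the core clock, read -0.75, 0.15 and 0.69 on NC-A, NC-B and NC-C, and -3.15, -2.40 and -0.34 on HC-A, HC-B and HC-C. Its HC-C value lay inside the normal chow range. Cyp7a1, the rate-limiting enzyme of bile acid synthesis, read 3.73, 4.49 and 4.99 on NC-A, NC-B and NC-C, and 2.80, 1.05 and 5.36 on HC-A, HC-B and HC-C, so that HC-C was the highest of the 6 arrays.

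The same search for Lpin1 gave other genes. Rgs16, a regulator of G protein signaling, was nearest (0.67), followed by Serpina4-ps1 (0.81), Gys2 (0.83), Pfkfb3 (0.84) and Gtl2 (0.84). Rgs16 read 1.48, 3.42 and 5.13 on NC-A, NC-B and NC-C, and 2.13, 0.66 and -0.05 on HC-A, HC-B and HC-C, so it was lowest on HC-C and, on normal chow, lowest on NC-A, as Lpin1 was. Gys2, the liver glycogen synthase, read 5.56, 7.03 and 6.69 on NC-A, NC-B and NC-C, and 5.0, 4.82 and 5.54 on HC-A, HC-B and HC-C. Unlike Lpin1, Gys2 was not lowest on HC-C. Of the 6 other genes of the set that could be compared, Hlf was the nearest to Lpin1 (1.06). Dbp and Lpin1 lay 1.95 apart, which ranked Lpin1 100 in the search for Dbp and Dbp 13465 in the search for Lpin1. Likeness by this measure also depends on the size of each gene's differences, and Tef, Hlf, Bhlhb2 and Nfil3 lay nearer to Lpin1 (1.27, 1.06, 1.33 and 1.95) than to Dbp (1.36, 1.83, 2.23 and 2.95).

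Genes of the clock, of its known liver outputs and of 3 further lists (regulators of Lpin1, C/EBP factors and glucocorticoid-induced genes), none of them in the set, were tested with limma across the whole table, with p-values adjusted over the 16730 genes. Of the 52 genes measured in 8 lists, 39 had a lower and 13 a higher mean on the high-Chol diet, and limma called 0 of them, while 18 were under 0.05 before adjustment, or 34.6% where 21.2% of all genes were. The methods' t-test put 4 of them at p under 0.05 without adjustment, or 7.69% where 16.7% of all genes were, and 0 with it. The lowest adjusted p from limma was 0.073, for Cry2. The median log2 difference of the 52 genes was -0.37 (-0.36 over the 47 well above background on all arrays), against -0.02 for all genes. The p-values measure only the spread between these arrays. The lists were chosen with earlier results of these data known, so their shares are a description. In limma the 18 genes became 7 without NC-B, 28 without NC-A and 5 with the normexp background. Of all 16730 genes, 2263, 3020 and 305 were then under 0.05 before adjustment.

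The activator Arntl, the partner of Clock, split the high-Chol arrays as Dbp did, in the opposite direction. It read -1.12, -1.71 and -3.67 on NC-A, NC-B and NC-C, and 1.19, 1.17 and -1.51 on HC-A, HC-B and HC-C. HC-C was within the normal chow range, and the other two were above every normal chow array. Its log2 difference was 2.45 with a standard error of 0.90 (limma, adjusted p = 0.195), and 3.36 within slide 1. Clock differed by 0.80 (limma, adjusted p = 0.188), and the activator Rora by -0.36.

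All 7 core clock repressors measured had a lower mean on the high-Chol diet, with a median log2 difference of -0.97 and 0 called by limma. Of the 7, 4 had an unadjusted p under 0.05 in limma, where 21.2% of all genes did. The high-Chol arrays lay below all normal chow arrays in 3 of the 7, where they did in 14.0% of all genes. The 3 were Cry2 at -1.37 (limma, adjusted p = 0.073), Nr1d2 (REV-ERB beta) at -0.97 (0.092) and Per1 at -0.97 (0.173). Per2 differed by -1.99 (limma, adjusted p = 0.192) and overlapped because of HC-C, where it read -0.34. Per3 passed the filter on low signal through normal chow and was not well above background on HC-A, so its difference is not given, and it read -2.52 on HC-C. The other 6 repressors, well above background on all arrays, had a median of -0.97 as well. Leaving out HC-C gave no call among the repressors. Leaving out HC-A gave adjusted p-values of 0.043 for Nr1d2 and 0.026 for Cry2 in limma, but diet and slide cannot be told apart in that fit. Scaling to the median gave 0.024 and 0.048 in limma. That scaling also moved the median log2 difference of all genes from -0.02 to -0.26. Cry1 and Nr1d1 (REV-ERB alpha) differed by -0.36 and -0.33, less than the range of the normal chow arrays, and within slide 1 Nr1d1 turned to 0.47.

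**Figure D4:**
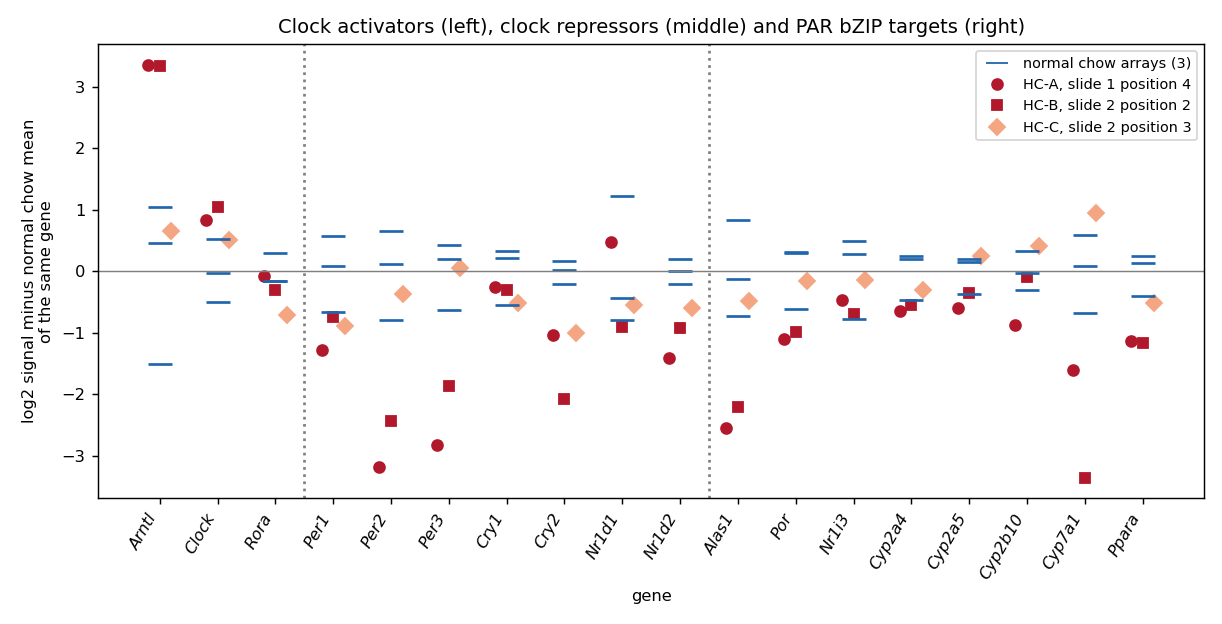
Log2 signal minus the normal chow mean of the same gene (y axis) for 3 core clock activators, the core clock repressors and liver targets of the PAR bZIP factors (x axis), with blue bars for the 3 normal chow arrays and a red or orange symbol for each high-Chol array. The orange diamond, HC-C, lies among the normal chow bars for Arntl, Per2, Per3 and Alas1, whereas HC-A and HC-B lie outside them (the Per3 spot on HC-A was not well above background).

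Liver genes known as targets of Dbp, Tef and Hlf had a lower mean in 8 of 8 measured, with a median log2 difference of -0.62 and 0 called by limma. Of the 8, 2 had an unadjusted p under 0.05, a share near the 21.2% of all genes. With the normexp background 7 of the 8 were lower, Cyp2a5 turning to 0.21. Alas1, the first enzyme of heme synthesis, read 6.52, 7.13 and 8.08 on NC-A, NC-B and NC-C, and 4.69, 5.04 and 6.76 on HC-A, HC-B and HC-C. Its split of the high-Chol arrays was that of Dbp, and its log2 difference was -1.74 (limma, adjusted p = 0.183). Ppara, the nuclear receptor of fatty acid oxidation, had no overlap between the diets, at -0.94 (limma, adjusted p = 0.121), and Por, the electron donor of the cytochromes P450, differed by -0.75 (0.260).

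Among 9 other rhythmic liver genes, 6 had a lower and 3 a higher mean, with a median log2 difference of -0.76 and 0 called by limma (5 of 9 at an unadjusted p under 0.05, where 21.2% of all genes were). Gys2 had no overlap between the diets, at -1.31 (limma, adjusted p = 0.145), and leaving out NC-A gave -1.74 with an adjusted p of 0.044 in limma. Cdkn1a, the cell cycle inhibitor p21, read -2.15, -2.64 and -3.15 on NC-A, NC-B and NC-C, and -0.45, -0.24 and -2.46 on HC-A, HC-B and HC-C. Its HC-C value lay within the normal chow range, and its log2 difference was 1.60 (limma, adjusted p = 0.198). Without HC-C, the array nearest to normal chow for this gene, it was 2.30 with an adjusted p of 0.042 in limma. That was the only call among the 52 list genes without HC-C, and Cdkn1a was singled out after its values were seen. The 6 clock kinases and ligases had a median of -0.17, with 4 lower, and 0 had an unadjusted p under 0.05 in limma. Their median was -0.33 with the normexp background. With median scaling it was -0.40, with 6 of 6 lower, where the median of all genes was -0.26. Of the kinases and ligases, Btrc, a subunit of a ubiquitin ligase, was called when HC-A was left out (-0.88, limma, adjusted p = 0.012), where diet and slide cannot be told apart.

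The genes known to act with or upstream of Lpin1 were read in the same way, 7 measured with a median log2 difference of -0.27 and 0 called by limma. Of the 7, 2 had an unadjusted p under 0.05, a share near the 21.2% of all genes. Lpin2, the main lipin of liver, differed by -0.61 (limma, adjusted p = 0.383) with no usable spot on HC-C, which the fit left out, and Lpin3 by 0.24. Of the coactivators, Ppargc1b (PGC-1 beta) had no overlap between the diets, at -1.0 (limma, adjusted p = 0.100), while Ppargc1a (PGC-1 alpha), known to raise Lpin1 expression, differed by -0.18 (0.778), and by 0.08 within slide 1. Ppargc1a read 0.13, 1.20 and 0.81 on NC-A, NC-B and NC-C, and 0.79, 0.82 and -0.01 on HC-A, HC-B and HC-C, so it too was lowest on HC-C. Srebf2, which drives the genes of Chol synthesis, had no overlap either, at -0.59 (limma, adjusted p = 0.194). With the normexp background Lpin3 turned to -0.10, and with median scaling Srebf1 turned from 0.22 to -0.02.

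Of the glucocorticoid-induced genes, Fkbp5, a co-chaperone of the glucocorticoid receptor, had no overlap at -1.92 (limma, adjusted p = 0.152), and the list's median was -0.35, with a lower mean in 5 of 7 and 0 called by limma. Sgk, a kinase induced by serum and glucocorticoids, differed the other way at 0.91 (limma, adjusted p = 0.160), with no usable spot on HC-B, which the fit left out. These 2 genes had an unadjusted p under 0.05, as 21.2% of all genes did. With the normexp background 3 of those 7 were lower, and the list's median was 0.04. Of the C/EBP factors, Cebpa, a factor of hepatocyte differentiation, had no overlap at -1.02 (limma, adjusted p = 0.151), and the other 3 measured differed by -0.19 to 0.10. The C/EBP list had a median of -0.08 (0.04 without the gene that lacked a usable high-Chol spot) and 0 called by limma (1 of 4 at an unadjusted p under 0.05, near the share of all genes). With median scaling that list's median was -0.28, with 4 of 4 lower, where the median of all genes was -0.26.

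**Figure D5:**
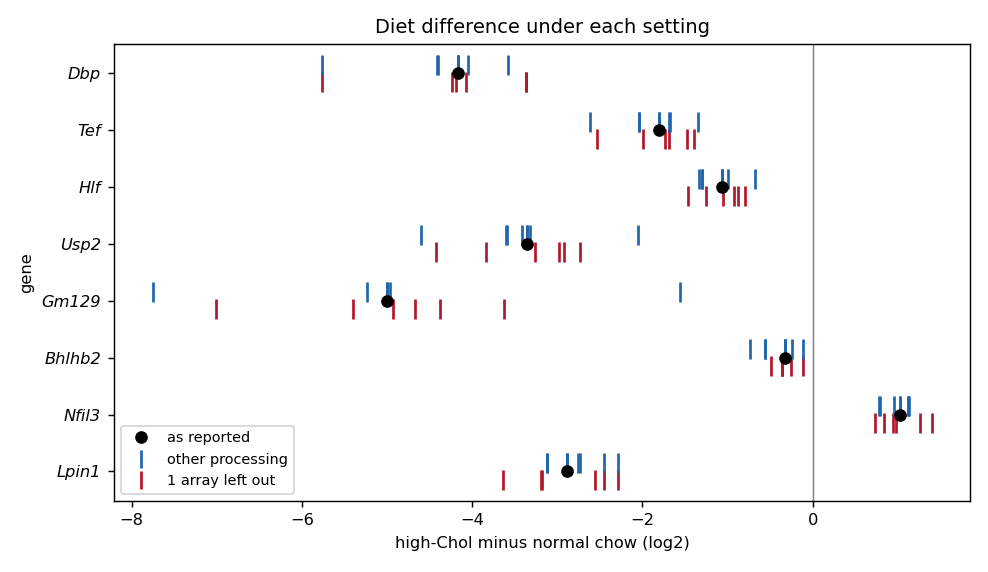
Log2 difference between the diets (x axis) for each of the 8 genes (y axis), as reported (black) and under each other way of processing the arrays (blue) or with 1 array left out (red). The values of Lpin1 run from -3.64 to -2.28 and those of Dbp from -5.76 to -3.37, and no value of any gene crosses 0.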

How the data were processed

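Liver RNA of apoE-KO mice was measured on 6 Agilent arrays of the whole mouse genome, each with a single dye, 3 per diet. The deposited scanner files hold spot intensity values from which the authors' Agilent Feature Extraction software had subtracted the background, not yet normalized between arrays. Their headers give version 9.5 on slide 1 and 9.1 on slide 2, and the submitters' processing notes name Agilent Feature Extraction 9.1. A table of the authors' normalized log2 values, a single value per probe and diet, was deposited too and used here as an alternative. Its column medians were -0.00185 and -0.273. Its values follow the scanner's log2 scale (slope 0.999, offset -0.243 and r = 1.00 over 23137 probes, for the differences between the diets), and its centring and filter are not given in the sources used here.

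Signals were expressed as log2 intensity minus that of the 75th percentile over the 43379 spots per array that were not controls, with no pseudocount. From 75 to 196 outlier spots per array were dropped, and saturated spots (0 to 5) were kept. Kept probes were well above background on every array of 1 diet or both, and each gene was read from its brightest probe. Samples were grouped by the diet in their labels. Genes outside the set were tested with limma 3.58.1 (lmFit and eBayes, R 4.3.3) on 3 against 3 arrays with no covariate, and p-values were adjusted by the Benjamini-Hochberg method, with calls at 0.05. The test was run on simulated data first, with the means and spreads of these genes. It called 24 of 106 genes changed 2-fold and 69 of 94 changed 4-fold, with 8 false calls, so it missed most 2-fold changes. Fold changes were counted above 1.5. The other tools were Python 3.11.15, pandas 2.3.3, numpy 2.4.6, matplotlib 3.10.9 and, in R, the package data.table (version 1.17.8).

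The genes of the set and the gene lists were chosen with earlier results of these data known. Named list genes are those called by limma, those without overlap between the diets and over 1.5-fold apart, and defining members of a list. The 5 genes nearest Dbp and Lpin1 are those outside the set with the smallest mean absolute difference. Genes singled out beyond this, such as Alas1, Cdkn1a and Por, were chosen after their values were seen. Positions of probes come from the annotation of the arrays (mm7), and promoter sequences and current symbols are from RefSeq (GRCm38.p6), used for no probe position. Alternatives were a normexp background (offset 50), median scaling, quantile normalization, no filter, a filter for all 6 arrays, probes averaged per gene, a block for slide, leaving out each array, the methods' t-test and the deposited log2 values. The number of arrays limits the precision.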

Additional observations from a re-analysis of the deposited data

How the results depend on the processing

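No paired analysis was possible because nothing in the labels ties an array of normal chow to an array of the high-Chol diet. For the 8 genes, 107 of 110 values under the alternatives moved by less than 1 SD and 0 changed sign, with the SD of each gene taken as the root mean square of its SDs in the 2 diets (2.56 for Gm129 and 0.28 for Bhlhb2). The exceptions were Gm129, at -1.56 with the normexp background and -7.75 with the slide block, and Bhlhb2, at -0.73 with the slide block. Some of the 110 values could not move. Both filter alternatives kept the same probe for each gene they held, and averaging leaves a gene with a single probe unchanged. The SD was also wide where HC-C stood apart (1.96 for Dbp), so the count is no measure of stability. Over all alternatives, each array left out included, the log2 difference ran from -5.76 to -3.37 for Dbp, -2.62 to -1.35 for Tef, -4.60 to -2.05 for Usp2, -1.47 to -0.67 for Hlf, 0.73 to 1.40 for Nfil3 and -3.64 to -2.28 for Lpin1. Of the 52 list genes outside the set, limma called 0, 2 with median scaling (Nr1d2 and Cry2) and 0 to 3 with an array left out, and the methods' t-test called 4 without adjustment (Ppara, Nr1d2, Ppargc1b and Cry2). Over all genes limma called 488 (450 higher and 38 lower), 401 with median scaling (328 higher and 73 lower), 0 with the normexp background (305 at an unadjusted p under 0.05), 26 with no filter, 11 with the slide block and 42 to 3075 with an array left out, the lowest without NC-B and the highest without HC-A, where diet and slide cannot be told apart. It called 262 without NC-A, 173 without NC-C, 105 without HC-B and 167 without HC-C. The methods' t-test gave 5 after adjustment and 2789 without it (1402 higher and 1387 lower). The cause of these changes was not tested. For all genes the median log2 difference was -0.02, moving to -0.11 with the normexp background and to -0.26 with median scaling. Spots not well above background limit the Gm129 values on HC-A and HC-B.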
